A study of Homo sapiens with 9 samples.

Results

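Small RNA genes were followed through 9 Chrom-seq libraries of HEK293T cells, an established human embryonic kidney line. They were all genes that GENCODE v19, the annotation of the count table, types as snRNA, snoRNA, miRNA, misc_RNA or rRNA on chromosomes 1 to 22, which gave 8485 of the 57820 genes counted. By type they were 1814 snRNA, 1391 snoRNA, 2847 miRNA, 1936 misc_RNA and 497 rRNA genes. In Chrom-seq a reader domain brings the peroxidase APEX2 to chromatin that carries a given mark, and RNA close to it is biotinylated, captured on streptavidin and sequenced. All cells were transiently transfected with an APEX2 fusion and a GCN4 (SunTag) fusion, and after 48 hours of expression were given biotin-aniline (500 µM, 30 min) and then hydrogen peroxide (1 mM, 1 min). In the Control group the GCN4 fusion held no reader, in the CBX1 group it held the chromodomain of CBX1, which binds H3K9me3, and in the CBX1_W42A group it held the same chromodomain with the amino acid change W42A. The labels of all 3 groups also carry the term NLS, which the labels do not explain. Each group had 3 libraries. The study calls the replicates independent, and neither it nor the labels say whether they were separate cultures, so p-values measure only the spread between these libraries. The 3 comparisons ask which RNAs were captured more with the H3K9me3 reader than without a reader, more with the altered reader than without one, and differently between both readers.

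The genes fall into families with distinct work in the cell. The misc_RNA genes hold 7SL, the scaffold of the signal recognition particle that brings ribosomes to the endoplasmic reticulum, 7SK, which holds the elongation factor P-TEFb inactive, the Y RNAs bound by Ro60, and the vault RNAs. Spliceosomal snRNAs pair with splice sites, box C/D and box H/ACA snoRNAs guide 2′-O-methylation and pseudouridylation, microRNA genes give hairpins that are cut to short guides, and the rRNA genes of this annotation are nearly all copies of 5S. Most of these RNAs carry no poly(A) tail and many of the genes are pseudogene copies, while the libraries were made from poly(A)-selected RNA with random primers.

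The 7SL genes RN7SL2 and RN7SL3 on chromosome 14 and the copies RN7SL313P on chromosome 2 and RN7SL333P on chromosome 1 were the members of this family that passed a test or carried most of the counts. RN7SL1, the third 7SL gene, is typed as an antisense gene in the annotation and is therefore not among the 8485, although its 3680 counts over the 9 libraries came close to the 3975 of RN7SL2. Every 31-base word of a gene was looked up on both strands of the genome. In RN7SL2, 4.12% of these words were unique, against 24.3% in RN7SL3, 54.1% in RN7SL313P and 80.1% in RN7SL333P, so how reads were divided among 7SL genes depends on how the counting treated reads with several matches, which is not given in the sources used here.

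Sequences of other small RNA genes that passed a test or stood out between the readers were read from GRCh37 on the strand of the gene. RN7SK (chr6:52860418-52860748, plus strand, 331 bases) is shown by its first 300 bases, which hold all 3 of its matches to GATC (in capitals), the letters that read GAUC in the RNA. VTRNA1-2 (chr5:140098510-140098598, plus strand), a vault RNA, and Z93241.1 (chr22:42948194-42948279, minus strand), typed as miRNA but carrying no microRNA name, follow it.
RN7SK: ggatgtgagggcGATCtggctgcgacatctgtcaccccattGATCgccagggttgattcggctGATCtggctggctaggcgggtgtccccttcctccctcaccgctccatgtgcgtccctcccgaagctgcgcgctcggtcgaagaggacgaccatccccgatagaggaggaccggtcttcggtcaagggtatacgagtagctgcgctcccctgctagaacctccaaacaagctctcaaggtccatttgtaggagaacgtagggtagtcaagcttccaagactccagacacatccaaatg
VTRNA1-2: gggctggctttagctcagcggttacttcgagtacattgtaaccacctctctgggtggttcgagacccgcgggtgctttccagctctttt
Z93241.1: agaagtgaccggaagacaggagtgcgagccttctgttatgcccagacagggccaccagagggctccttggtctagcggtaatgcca

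Unique 31-base words made up 10.96% of RN7SK and 7.14% of Z93241.1. Among the 48 small RNA genes with enough counts to be described singly, 20 were typed as miRNA. Of these 14 matched a RefSeq entry, which gave 18 mature sequences with 18 different seeds, so that no pair shared bases 2 to 8. The mature sequences of the 3 named microRNA genes with the most counts are shown with the seed in capitals.
hsa-miR-3685: uUUCCUACccuaccugaagacu
hsa-miR-4697-3p: uGUCAGUGacuccugccccuuggu
hsa-miR-324-5p: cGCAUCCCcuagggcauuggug
hsa-miR-324-3p: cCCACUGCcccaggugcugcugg

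The libraries held between 8379542 and 11082852 counts. All 6 genes listed as marks of HEK293T cells, among them NEFM and PAX2, had at least 10 counts in every library, with levels from 3.84 to 11.03 CPM for PAX2. Of the 5 genes listed for embryonic stem cells none had over 5 counts in a library, and NANOG and DPPA4 were at 0 in all 9. Of the 5 listed for colon epithelium CDX2 had 205 to 344 counts (23.6 to 32.2 CPM), VIL1 4 to 11, LGALS4 up to 6 and KRT20 up to 1, and CDH17 was at 0. Replicates differed by more than sampling noise in every group, and none held identical values.

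Few small RNA genes held counts at all. Of the 8485 genes, 576 (6.79%) had at least 1 count in the 9 libraries together, and 48 (0.566%) had a summed count above 18, the minimum used here to call a gene measured. By the same measure, 85.9% of protein-coding genes on these chromosomes had counts and 73.7% were measured, and for lincRNA genes the shares were 52.6% and 21.9%. These sets differ in length and position. The median length was 104 bases for small RNA genes, 25960 for protein-coding genes and 5649 for lincRNA genes. Wholly inside another gene of their strand lay 39.7%, 3.36% and 5.35% of them. The small RNA genes held 9202 counts in all. Of these, misc_RNA genes took 5933 (64.5%) and miRNA genes 1816 (19.7%), while snRNA, snoRNA and rRNA genes held 799, 489 and 165.

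No small RNA gene inside another gene of its strand held a count. Of the 8485 genes, 3367 (39.7%) lay wholly inside at least 1 other gene of the same strand, and 0 of these 3367 held a count. Protein-coding genes in the same position, 652 of them, and lincRNA genes, 371, likewise held 0 counts. A count of 0 in this position is thus not particular to small RNA genes and does not measure how much of their RNA was captured. The share inside a host ran from 28.2% of rRNA genes to 48.5% of snoRNA genes, many of which are processed from introns. Another 16 genes overlapped a same-strand gene in part, of which 3 held counts and 0 were measured. Of the 5102 genes free of same-strand overlap, 573 (11.2%) held counts and 48 were measured. Overlap with a gene of the opposite strand made no such division, since 213 of 1926 free genes with one held counts (11.1%) and 360 of 3176 without one did (11.3%).

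**Figure D1:**
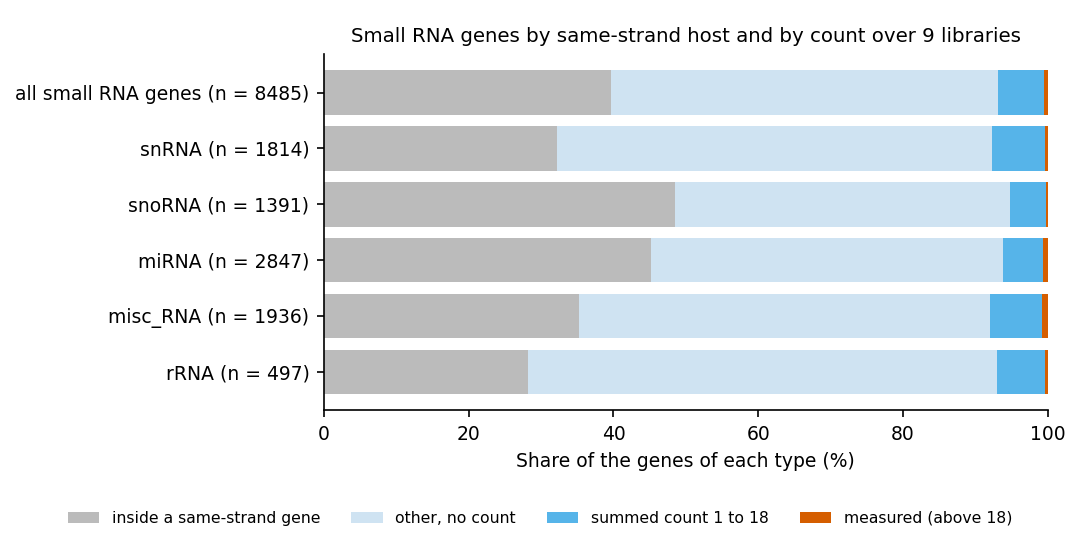
Share of the small RNA genes of each type (percent, horizontal axis) that lay inside a same-strand gene, that lay elsewhere and held no count, that had a summed count of 1 to 18, and that were measured. The grey part, which held no count in any library, is widest for snoRNA genes at 48.5% and narrowest for rRNA genes at 28.2%, and the measured part is under 1% in every type.

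Several of the best known small RNAs were thus outside what the table can show. RNU1-2 and RNU1-4, both U1 genes inside CROCC, RNU2-2P inside WDR74, RNU4ATAC inside RP11-204L24.2 and RNU7-1 inside C12orf57 were at 0 in all libraries. Others were free of a host and still held few or no counts. RNY3, RNY4 and RNY5 were at 0 and RNY1 held 1 count over the 9 libraries, RNU6-1 held 1, RNU1-1 held 10, RNU4-1 held 12 and RNU4-2 held 9. Low counts do not show that these RNAs were absent from the captured RNA.

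Among the 5102 free genes, those that followed a well-counted gene on the same strand held counts most often. Of 108 free genes whose nearest same-strand gene upstream ended within 5 kb and had a level of at least 10 CPM over the 9 libraries (CPM, counts per 1000000 counts of a library), 67 (62.0%) held counts and 11 were measured. With a nearest upstream gene under 10 CPM at the same distance, 64 of 532 (12.03%) held counts, and at a greater distance 442 of 4462 (9.91%) did. The median distance to the upstream gene was 8379 bp for the measured genes, 17649 bp for those with counts that were not measured and 56122.5 bp for those without counts. These values share the libraries with the neighbours' counts and are given as a description.

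In a later annotation, GENCODE v44 mapped to GRCh37, some of the genes that were free in the older one lay inside a transcribed unit. Of 92 free genes that overlapped an exon of a same-strand gene there, 41 (44.6%) held counts and 13 were measured. In introns the share with counts was 49 of 372 (13.2%), and outside same-strand genes it was 483 of 4638 (10.4%). The 13 measured genes in later exons included RN7SL2 and the microRNA genes MIR4697, MIR621, MIR3911, MIR568, MIR34A and MIR378I. The letters of the genes made less of a division. Of genes with under 50% unique 31-base words 12.2% held counts, against 11.4% of those with unique words throughout. A run of at least 10 A within the gene or the 50 bases after it was found in 10.4% of measured genes, 10.5% of those with fewer counts and 9.54% of those without counts. Median GC content was 54.0%, 46.6% and 43.0% in the same order.

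**Figure D2:**
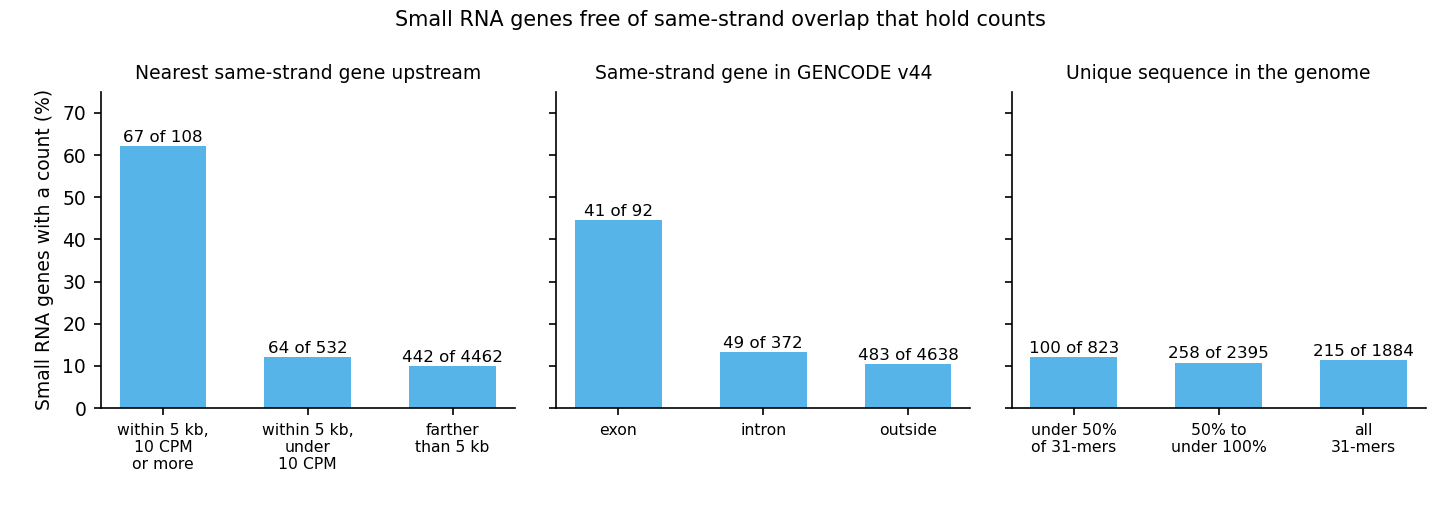
Share of free small RNA genes with at least 1 count over the 9 libraries (percent, vertical axis), by distance and level of the nearest same-strand gene upstream, by position in GENCODE v44, and by the share of 31-base words unique in the genome. The tall bars are genes within 5 kb of an upstream gene of 10 CPM or more, 67 of 108, and genes in later same-strand exons, 41 of 92.

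The large families differed in how often their free genes held counts. Of 486 free 7SL genes and copies 86 (17.7%) held counts and 11 were measured, and the family took 4964 (53.9%) of the counts of small RNA genes. Of 490 free named microRNA genes 91 (18.6%) held counts. The shares were lower in the U6 genes, with 87 of 863 (10.1%), the box C/D genes, with 40 of 392 (10.2%), the 7SK genes and copies, with 19 of 201 (9.45%), and the Y RNA genes, with 45 of 548 (8.21%). Families were set by gene name, and the box C/D family holds genes named SNORD or snoU13 and leaves out those named U3. Most measured genes were near the minimum: 26 of the 48 had under 50 counts in all, 9 had 100 or more, and 5 had at least 10 counts in every library. RN7SL753P with 19 counts and RN7SL758P and MIR34A with 20 each lay just inside the minimum, and RNVU1-18 and MIR4682 with 18 and MIR4787 with 17 just outside it.

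More small RNA genes held a count with CBX1 than without a reader. At the depth of the smallest library, an expected mean of 123.9 ± 11.9 genes had at least 1 count in Control, 196.3 ± 2.70 with CBX1 and 163.6 ± 4.21 with CBX1_W42A (SD, n = 3), and the libraries of the 3 groups did not overlap. The ratio of CBX1 to Control was 1.58 for these genes and 1.09 for all genes of the table. Without thinning, the libraries had 126, 144 and 124 such genes in Control, 203, 198 and 215 with CBX1, and 180, 177 and 169 with CBX1_W42A. The same was seen among other genes of few counts. Small RNA genes with summed counts of 1 to 18 together took 14.5 ± 2.03 CPM in Control, 29.8 ± 3.04 with CBX1 and 24.1 ± 1.75 with CBX1_W42A. The 8995 other genes in the same range of counts took 381.9 ± 32.6, 757.3 ± 28.8 and 612.3 ± 39.8 CPM. The ratio of CBX1 to Control was 2.06 for the small RNA genes and 1.98 for the others, and that of CBX1_W42A to Control was 1.66 and 1.60, so both kinds of gene shifted by similar ratios.

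Summed over all members, small RNA genes took 89.3 ± 3.42 CPM in Control, 134.0 ± 18.97 with CBX1 and 101.3 ± 8.57 with CBX1_W42A (SD, n = 3). Every CBX1 library was above every other, while CBX1_W42A replicate 3 at 92.3 CPM lay under Control replicate 3 at 92.5 CPM. RN7SL2 alone held 43.2% of the counts. Without it the sums were 47.8 ± 4.79, 75.9 ± 10.6 and 60.5 ± 0.931 CPM, and the 3 groups did not overlap. In these bulk libraries fewer labelled cells and less of an RNA per cell cannot be told apart.

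**Figure D3:**
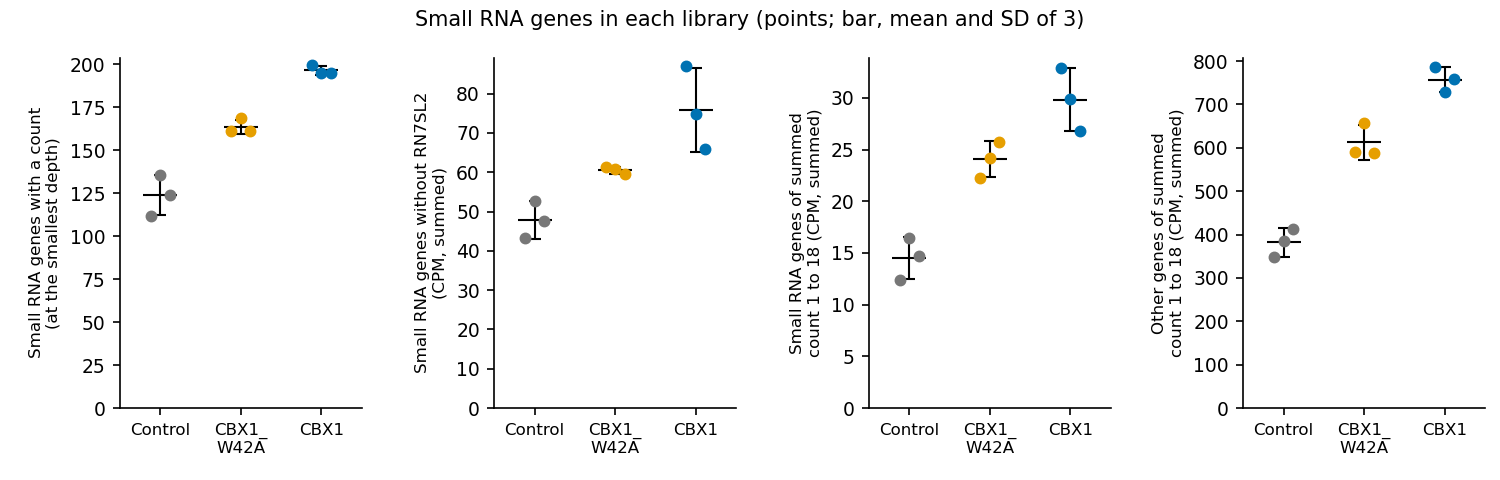
The 9 libraries as points with the mean and SD of each group of 3, for the number of small RNA genes with a count at the smallest depth, the summed CPM of small RNA genes without RN7SL2, and the summed CPM of small RNA genes and of other genes with summed counts of 1 to 18. In all 4 panels the Control libraries are lowest and the CBX1 libraries highest, with no overlap.

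By family, with RN7SL2 set apart, 14 groups had at least 50 counts in all. The mean CPM was higher with CBX1 than in Control in 13 of them and with CBX1_W42A in 11, a shift that the other genes of few counts showed too, with the ratios given above. The U6 genes took 3.26 ± 1.39 CPM in Control, 6.10 ± 0.690 with CBX1 and 5.91 ± 0.629 with CBX1_W42A. Box C/D genes took 1.23 ± 0.353, 3.23 ± 1.24 and 2.81 ± 0.288 CPM, and named microRNA genes 11.7 ± 1.91, 16.5 ± 0.886 and 14.96 ± 1.52 CPM. In these 3 families both reader groups lay wholly above Control. Y RNA genes, at 3.80 ± 0.709, 3.97 ± 0.668 and 3.29 ± 1.11 CPM, overlapped between all groups, and vault RNA genes, at 0.730 ± 0.485, 0.474 ± 0.460 and 1.55 ± 0.490 CPM, were the only group of the 14 with a lower mean with CBX1 than in Control.

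Gene by gene, 35 small RNA genes had enough counts to be tested in CBX1 against Control. In edgeR's quasi-likelihood test 2 of these were enriched with CBX1 and 0 were depleted, where a call needed an adjusted p under 0.05 and a change of log2 0.75 or more. Over all 18837 genes tested, 7.06% were enriched and 0.340% depleted, and the share among small RNA genes was 5.71%. The median log2 fold change was 0.30 over the 35 and 0.03 over all genes, and 23 of the 35 were above 0. Most of the 35 had few counts, and their median was not compared with that of other genes of like counts. Other genes with summed counts of 1 to 18 also took more CPM with CBX1, by the ratio of 1.98 given above. At an unadjusted p below 0.05, 4 (11.4%) had a positive and 0 a negative fold change, against 18.2% and 16.1% of all genes. DESeq2 called 1 (2.86%) enriched, against 5.63% of all genes.

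RN7SL313P, a 7SL copy on chromosome 2, showed the larger change of the pair. It had 2, 2 and 1 counts in Control, 8, 16 and 8 with CBX1 and 12, 9 and 4 with CBX1_W42A. All libraries of both reader groups were above the Control libraries, and the reader groups overlapped with each other. RN7SL313P met the count minimum in both tests against Control only through the reader libraries. The log2 fold change for CBX1 against Control was 2.58 (SE 0.70, adjusted p = 0.0160). It was 2.40 with an adjusted p of 0.0511 without Control replicate 3 and 2.13 with 0.0725 without CBX1 replicate 2. Against Control, CBX1_W42A had a log2 fold change of 2.11 that did not pass (adjusted p = 0.128).

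Z93241.1 had 5, 7 and 6 counts in Control, 17, 26 and 10 with CBX1 and 8, 16 and 8 with CBX1_W42A. The 3 CBX1 values lay above the 3 Control values, and the CBX1_W42A libraries overlapped with those of CBX1. Its Control counts alone were not above the count minimum, so in CBX1 against Control it was tested only through the CBX1 libraries. The log2 fold change for CBX1 against Control was 1.52 (SE 0.51, adjusted p = 0.0435). The gene begins 2950 bp after the end of RRP7B on the same strand. Its call was lost in DESeq2 (adjusted p = 0.0637), without any 1 of the Control libraries, CBX1 replicate 1 or CBX1 replicate 2, with adjusted p from 0.0571 to 0.203 in those 5 fits, and with the replicate number as a block (adjusted p = 0.0732).

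RN7SL2, the 7SL gene with the most counts, had 461, 348 and 377 counts in Control, 451, 655 and 472 with CBX1, and 452, 452 and 307 with CBX1_W42A. Scaled to library size these were 41.5 ± 4.05, 58.1 ± 14.99 and 40.7 ± 7.87 CPM (SD, n = 3), with CBX1 above Control in all libraries. The log2 fold change of 0.40 against Control (SE 0.14) did not pass (adjusted p = 0.0581). It was 0.16 (adjusted p = 0.373) without CBX1 replicate 2 and 0.53 (adjusted p = 0.0319) without CBX1 replicate 3, and the adjusted p was 0.0309 with library size alone and 0.00694 with no filter on low counts. Against CBX1_W42A the log2 fold change was 0.47, which did not pass (adjusted p = 0.110). RN7SL3, next to it on chromosome 14, had between 16 and 45 counts per library and log2 fold changes of 0.07 for CBX1 and -0.08 for CBX1_W42A against Control. RN7SL1, which is not a member, had 367, 381 and 269 counts in Control, 461, 506 and 420 with CBX1 and 473, 506 and 297 with CBX1_W42A. How the counting divided reads between RN7SL1 and RN7SL2 is not given. The copy RN7SL737P had 12, 5 and 13 counts in Control, 11, 17 and 6 with CBX1 and 8, 11 and 4 with CBX1_W42A, which overlapped, and log2 fold changes of 0.16 and -0.51 against Control.

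**Figure D4:**
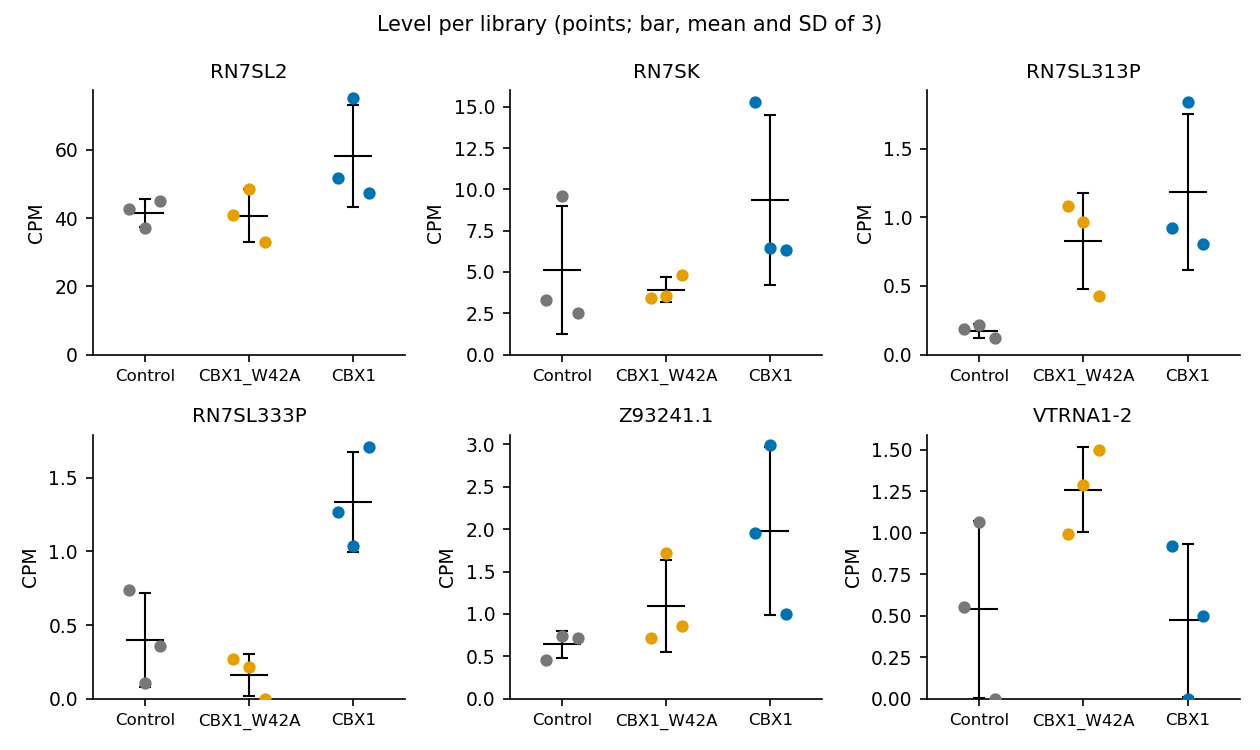
CPM of 6 small RNA genes in each library (points) with the mean and SD of each group of 3. The CBX1 libraries are above all Control libraries for RN7SL2, RN7SL313P, RN7SL333P and Z93241.1, while RN7SK overlaps between CBX1 and Control through Control replicate 2 and VTRNA1-2 has libraries at 0 in Control and CBX1.

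In CBX1_W42A against Control, 35 small RNA genes were tested and 0 were called in either direction by edgeR. The background was 0.974% enriched and 0.0214% depleted of 18680 genes. At an unadjusted p below 0.05, 2 (5.71%) had a positive and 1 (2.86%) a negative fold change, against 9.66% and 9.61% of all genes. DESeq2 called 0, against 1.01% enriched over all genes. The median log2 fold change was 0.20, against 0.01 over all genes, with the same limit of few counts. The snoU13 copy on chromosome 11 (ENSG00000238855.1), annotated as a box C/D snoRNA and lying 3526 bp after FOXRED1, had 1, 0 and 4 counts in Control and 10, 8 and 11 with CBX1_W42A. Its groups did not overlap, and its log2 fold change of 2.31 (SE 0.79) did not pass (adjusted p = 0.116). It met the count minimum only through the CBX1_W42A libraries. AC005702.1, typed as miRNA, had 27, 8 and 15 counts in Control and 10, 10 and 6 with CBX1_W42A, with a log2 fold change of -1.05 (adjusted p = 0.239).

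In CBX1 against CBX1_W42A, which sets both readers against each other, 40 small RNA genes were tested. Of these, 2 were enriched with CBX1 and 0 depleted, against a background of 0.795% enriched and 0.201% depleted of 19360 genes. At an unadjusted p below 0.05, 3 (7.5%) had a positive and 1 (2.5%) a negative fold change, against 8.23% and 8.404% of all genes. DESeq2 called 1 (2.5%) enriched, against 0.713% of all genes. The median log2 fold change was 0.10, against -0.00 over all genes, again with the limit of few counts.

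RN7SK was the better counted of these 2. It had 133, 56 and 63 counts with CBX1 and 38, 33 and 45 with CBX1_W42A, and 36, 90 and 21 in Control. All CBX1 libraries were above all CBX1_W42A libraries, by a log2 fold change of 1.21 (SE 0.30, adjusted p = 0.0359). Control replicate 2 was above 2 of the CBX1 libraries, and CBX1 against Control, at 0.76, did not pass (adjusted p = 0.192). Single libraries carried much of both values. Without CBX1 replicate 1 the difference between the readers was 0.66 (adjusted p = 0.334), and without CBX1_W42A replicate 1, 2 or 3 the adjusted p was 0.0831, 0.0833 and 0.0553. Without Control replicate 2 the log2 fold change of CBX1 against Control was 1.56 (adjusted p = 0.00417). The genes whose log2 CPM ran most like that of RN7SK over the 9 libraries, out of 14305 compared, were CTD-2015H6.3 (r = 0.96), RP11-159C21.4 (r = 0.96) and MRPL33 (r = 0.95), values picked as the highest of many.

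RN7SL333P, the 7SL copy on chromosome 1, had 11, 9 and 17 counts with CBX1, 3, 2 and 0 with CBX1_W42A and 8, 1 and 3 in Control. Its CBX1 libraries were above all others, and only through them did it pass the count minimum in both tests with CBX1. The log2 fold change was 2.87 for CBX1 against CBX1_W42A (SE 0.73, adjusted p = 0.0390), and 1.58 against Control, which did not pass (adjusted p = 0.0755). Leaving out CBX1 replicate 1 or 3, or any 1 CBX1_W42A library, ended the call, with adjusted p from 0.0555 to 0.147. Opposite in sign was VTRNA1-2, with 8, 0 and 5 counts with CBX1, 11, 12 and 14 with CBX1_W42A and 6, 10 and 0 in Control. The CBX1_W42A libraries were above all CBX1 libraries and, in CPM, overlapped with Control through Control replicate 2, and the log2 fold change of -1.42 for CBX1 against CBX1_W42A did not pass (adjusted p = 0.282). In that test VTRNA1-2 met the count minimum only through the CBX1_W42A libraries.

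**Figure D5:**
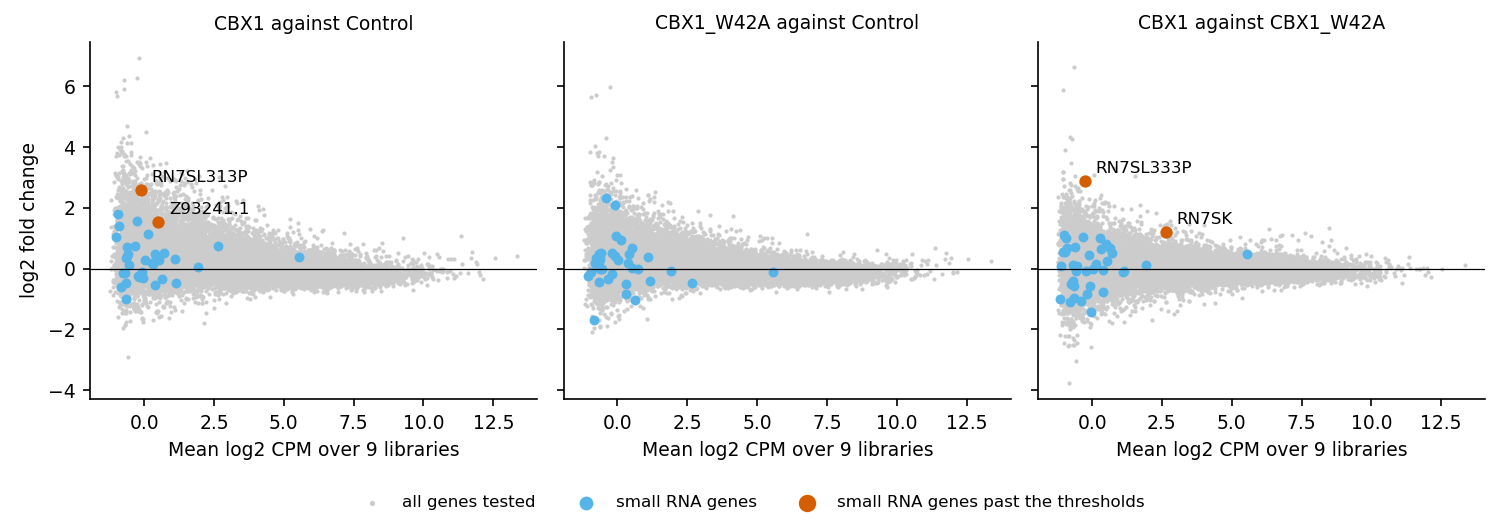
Log2 fold change (vertical axis) against mean log2 CPM over the 9 libraries (horizontal axis) for all genes tested (grey), small RNA genes (blue) and small RNA genes past both thresholds (orange) in the 3 comparisons. RN7SL313P at 2.58 and Z93241.1 at 1.52 passed in CBX1 against Control, none passed in CBX1_W42A against Control, and RN7SL333P at 2.87 and RN7SK at 1.21 passed in CBX1 against CBX1_W42A.

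The other families had no member past the thresholds. Of the snRNA genes, the U6 copy RNU6-322P had the most counts, with 4, 7 and 3 in Control, 3, 13 and 16 with CBX1 and 12, 11 and 7 with CBX1_W42A, and a log2 fold change of 1.13 for CBX1 against Control (adjusted p = 0.223). The U6 copy RNU6-45P, the U5 copy RNU5E-4P, the U1 variant RNVU1-14 and the U2 copy RNU2-22P had log2 fold changes of -0.13, 0.43, 0.71 and -0.46 in the same comparison, with SEs from 0.72 to 0.83. RNU5A-1, the one measured member among the classical spliceosomal snRNAs looked for by name, had 33 counts over the 9 libraries and a log2 fold change of -0.13 (SE 0.86). RNU12, with 28 counts, is typed as a lincRNA gene in the annotation and is therefore not a member.

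Of the snoRNA genes, SNORA11, a box H/ACA gene, had the most counts and the most even ones, with 10, 9 and 12 in Control, 12, 16 and 11 with CBX1 and 12, 11 and 12 with CBX1_W42A. Its log2 fold changes were 0.30 and 0.04 against Control. The U3 copy on chromosome 17 had 3, 7 and 4, then 11, 5 and 8, then 3, 0 and 9 counts in the same order, with a log2 fold change of 0.73 for CBX1 against Control (adjusted p = 0.424). The snoU13 copy on chromosome 12 (ENSG00000238528.1) had 7, 1 and 5, then 5, 9 and 0, then 2, 10 and 2 counts, with a log2 fold change of 0.11 (SE 0.87) for CBX1 against Control.

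Among the named microRNA genes, MIR3685 had 11, 15 and 18 counts in Control, 19, 17 and 21 with CBX1 and 21, 26 and 17 with CBX1_W42A, and log2 fold changes of 0.33 and 0.39 against Control. MIR324, the gene of both miR-324 arms printed above, had 9, 8 and 7, then 8, 12 and 14, then 11, 16 and 10 counts. MIR4697 had 4, 11 and 19, then 19, 8 and 24, then 19, 6 and 13, with wide overlap. The counts of a microRNA gene are reads over its whole hairpin span and do not measure the mature guide. Of the 5S copies, RNA5SP283 had between 2 and 15 counts per library, with a log2 fold change of -0.28 for CBX1 against Control, and RNA5SP437 had 21 counts in all. The Y RNA copy on chromosome 16 (ENSG00000207425.1) had 29, 15 and 23 counts in Control, 21, 17 and 11 with CBX1 and 14, 28 and 13 with CBX1_W42A, and log2 fold changes of -0.46 and -0.40 against Control. None of its 31-base words was unique in the genome.

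The 3367 small RNA genes wholly inside a same-strand gene lay in 2778 host genes, whose own counts could be compared. In CBX1 against Control 146 of 2201 hosts tested (6.63%) were enriched and 8 depleted, close to the 7.06% and 0.340% of all genes. In CBX1_W42A against Control 25 of 2185 (1.14%) were enriched and 1 depleted, against 0.974% and 0.0214% of all genes. In CBX1 against CBX1_W42A 21 of 2220 (0.946%) were enriched and 2 depleted, against 0.795% and 0.201% of all genes. The hosts with the smallest adjusted p in the first comparison were AC003006.7, which holds AC003006.1, with a log2 fold change of 2.27, and N4BP2L1, which holds a SNORA16 gene, with 2.15 (both adjusted p = 4.88e-06). N4BP2L1 had 37, 30 and 41 counts in Control, 176, 153 and 159 with CBX1 and 81, 95 and 48 with CBX1_W42A, without overlap between groups. COL7A1, host of MIR711, had a log2 fold change of 1.498 with CBX1 and 1.00 with CBX1_W42A against Control (adjusted p = 1.21e-05 and 0.00274). EPCAM, host of MIR559, was lower with CBX1 than with CBX1_W42A by a log2 fold change of -1.06 (adjusted p = 0.00356). Whether the hosts' counts hold reads of the small RNAs inside them was not tested.

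The captured RNA of genes whose proteins make or bind these RNAs was examined through a list of 57 genes. Among them were DROSHA and DICER1 of microRNA processing, DKC1 and FBL of snoRNPs, LARP7 and HEXIM1 of the 7SK complex, and genes of SRP proteins. These values measure neither protein nor the total RNA of the cells. Of the 56 tested, 0 passed both thresholds in any of the 3 comparisons. At an adjusted p below 0.05 whatever the size, 4 of 56 were higher and 10 of 56 lower in CBX1 against Control. Over all genes 10.6% were higher and 9.46% lower, so the list had a smaller share higher and a larger share lower. This difference was not tested. In CBX1_W42A against Control 1 of 56 was higher and 4 of 56 lower (1.37% and 1.25% of all genes). In CBX1 against CBX1_W42A 0 of 56 were higher and 1 of 56 lower (1.32% and 0.925% of all genes). Their log2 fold changes in CBX1 against Control ran from -0.59 to 0.52, with a median of -0.05, against 0.03 over all genes.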

How the data were processed

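Counts of reads per gene in 9 Chrom-seq libraries were used. The authors trimmed reads with fastp 0.23.1, aligned them to hg19 with HISAT2 2.1.0 and counted them with featureCounts 2.0.1 on GENCODE v19, and deposited the raw counts without normalization. Strand, feature and multiple-match settings are not given in the sources used here. The table lists the whole span as the length of all 57820 genes. Groups were taken from the labels.

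Genes with summed counts above 18 over 6 libraries were tested 2 groups at a time with edgeR 4.0.16 (quasi-likelihood test, TMM factors, Benjamini-Hochberg adjustment) in R 4.3.3. Thresholds were an adjusted p below 0.05 and an absolute log2 fold change of at least 0.75. CPM is counts per 1000000 of the library total, which ran from 8379542 to 11082852. Shares of members were counted in Python 3.11.15 with pandas 2.3.3. A host is a gene of the same strand that holds a member wholly. Sequences came from GRCh37, GENCODE v44 mapped to it and RefSeq (GRCh38.p14, mature miRNAs). The steps were tested on simulated data.

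Members named were those called, those on a list of classical small RNAs, and the 5 with the highest mean CPM of each type; genes at the count minimum or in later exons were chosen after their values were seen. Alternatives were DESeq2 1.42.0, RLE factors, library size alone, other filters and fold minimums, all 9 libraries, a replicate block, and leaving out each library. Some sequences are not reported here. The members and lists were chosen with earlier results of these data known.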

Additional observations from a re-analysis of the deposited data

Results flagged for a closer look

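The responses of the CBX1 and CBX1_W42A readers differed for 2 small RNA genes by the direct test between both readers with edgeR. RN7SK had a log2 fold change of 1.21 for CBX1 against CBX1_W42A, with CBX1 above CBX1_W42A in all libraries. RN7SL333P had a log2 fold change of 2.87 in the same comparison, on 11, 9 and 17 counts with CBX1 and 3, 2 and 0 with CBX1_W42A. It met the count minimum only through the CBX1 libraries. Over 13 and 11 alternatives the adjusted p ran up to 0.334 and 0.147.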

How the results depend on the processing

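The count of small RNA genes enriched in CBX1 against Control, 2, became 1 with DESeq2, 0 of 10 tested with filterByExpr, and 0 to 2 when single libraries were left out. Over all genes the counts were 1060 of 18837 with DESeq2, 1196 of 15876 with filterByExpr and 980 to 1223 when single libraries were left out. RN7SL313P and Z93241.1 were not among the 10 tested with filterByExpr. The count of small RNA genes enriched in CBX1 against CBX1_W42A, also 2, became 1 with DESeq2 and 1 of 12 tested with filterByExpr. It was 0 with all 9 libraries in one fit, and 0 to 2 when single libraries were left out. Over all genes the counts in the same order were 138 of 19360, 156 of 16297, 117 of 20066, and 66 to 181. RN7SL333P was not among the 12 tested with filterByExpr. The number of genes measured was 576 with at least 1 count and 5 with at least 10 counts in every library. Without RN7SL2 the summed CPM was 47.8 in Control, 75.9 with CBX1 and 60.5 with CBX1_W42A. With any same-strand overlap counted as a host, 3 hosted genes held counts. Signs turned when single libraries were left out. In CBX1_W42A against Control the log2 fold change of RN7SL2 ran from -0.237 to 0.0428, above 0 without CBX1_W42A replicate 3, and that of RN7SK from -0.792 to 0.357, above 0 without Control replicate 2. In CBX1 against Control that of VTRNA1-2 ran from -1.12 to 0.531, at the latter without Control replicate 2 and at 0.241 without CBX1 replicate 2. The cause was not tested.

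Over the 3 pairs of groups together, deviations from the group means correlated from -0.215 to 0.168 for equal replicate numbers and from -0.283 to 0.224 for different ones. Between CBX1 and CBX1_W42A, equal numbers gave 0.168, 0.082 and 0.119, and different ones ran from -0.193 to 0.086. These values do not settle whether the replicate numbers of these 2 groups pair. With the replicate block, 1 small RNA gene, RN7SL313P, was enriched in CBX1 against Control. Over all genes in CBX1 against CBX1_W42A, 250 were enriched and 66 depleted with the block, against 154 and 39 without it.

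Over all genes, in CBX1 against Control 1998 were enriched and 1782 depleted with no minimum fold change, 24 were depleted at a minimum of log2 1 and 31 with library size alone. In CBX1_W42A against Control 338 were enriched and 9 depleted with no filter, and 284 and 7 with all 9 libraries; depleted genes numbered 0 at log2 1, 233 with no minimum and 1 with library size alone, and leaving out single libraries gave 42 to 111 enriched and 0 to 8 depleted. In CBX1 against CBX1_W42A 102 were enriched and 23 depleted at log2 1, 255 and 179 with no minimum, 244 and 70 with no filter, and from 66 to 181 and 17 to 47 when single libraries were left out.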
